A study of Homo sapiens with 15 samples.

Results

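Leukocytes stick to vessel walls, to matrix and to each other through a small set of surface proteins, and 9 genes of that set were followed in THP-1 cells given bacterial extracellular vesicles (BEVs). They are the ligands *ICAM1*, *ICAM2* and *ICAM3*, the integrin chains *ITGB2*, *ITGAL*, *ITGAM*, *ITGAX* and *ITGA4*, and the selectin ligand *SELPLG*. The list is a list of symbols and all 9 were found once each among the 60286 genes of the count table. THP-1 is a line of human leukaemic monocytes, labelled wild type. The control group (NC) received PBS, EUC and EPL received *E. coli* BEVs at 1 μg/mL, and SUC and SPL received *S. aureus* BEVs at 10 μg/mL. UC stands for ultracentrifugation and PL for precipitation with epsilon-poly-L-lysine, the methods by which the BEVs were isolated. Each of the 5 groups had 3 libraries. The study's methods give 6 h of incubation, while the labels give day 0 for every library. Species and dose changed together and cannot be told apart. Nothing in the labels says that the 3 libraries of a group came from separate cultures, so the p-values measure only the spread between these libraries.

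Integrins are pairs of an alpha and a beta chain. The chain encoded by *ITGB2* pairs with that of *ITGAL* to form LFA-1, with that of *ITGAM* to form Mac-1 (complement receptor 3), and with that of *ITGAX* to form complement receptor 4. LFA-1 binds the ICAM proteins, and Mac-1 binds ICAM-1, complement fragments and fibrinogen. The chain of *ITGA4* pairs with that of *ITGB1* to form VLA-4, which binds VCAM-1 and fibronectin. PSGL-1, the product of *SELPLG*, carries sulphated tyrosines and branched sugars and lets rolling leukocytes catch on selectins. *ICAM1* is a classical target of NF-kappa B and of interferon gamma.

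The libraries held between 14399421 and 16637345 counted reads. TMM normalization factors lay between 0.9154 and 1.087, with the 3 NC libraries highest and EUC3 lowest. Mitochondrial genes took 3.71% to 3.97% of the reads in NC and 3.90% to 4.57% in the BEV libraries, and the part of this in the results was not tested. Of 12 monocyte markers, 11 were tested, and *CD68* had at most 3 reads in any library. How reads shared by overlapping genes were counted is not stated in the sources read. Its part in this low count was not tested, so the count does not show that the cells lack *CD68* RNA. Summed, the 12 markers reached 1803 to 1818 CPM (read counts scaled to the normalized library size) in NC and 2257 to 2810 CPM in the 12 BEV libraries. In each BEV group 5 of the 11 tested markers passed upwards and 4 downwards. Among all tested genes, 12.4% to 16.5% passed upwards and 9.15% to 14% downwards in the BEV groups. *SPI1* was at 471 CPM in NC and 960.3 to 1198 CPM in the BEV groups. *CD33* was at 82.8 CPM in NC and 50.1 to 64.8 CPM in the BEV groups. The T cell markers had at most 1 read each in any library, and the summed B cell, endothelial and epithelial or fibroblast markers reached at most 6.76 CPM. Whether these marker changes have a part in the results below was not tested. Within their groups, EUC3, EPL1 and SUC3 stood apart. The chi-square per degree of freedom over genes was 22.86 to 46.13 between EUC3 and the other EUC libraries against 7.09 between those, 18.5 to 20.1 for EPL1 against 2.81, and 15.6 to 26.9 for SUC3 against 5.67. EUC3 and SUC3 were also the lowest of their groups for *ICAM1*, *ITGAL*, *ITGAM*, *ITGAX* and *ITGA4*. Without these 3 libraries the same 3 genes passed upwards and the same 3 downwards against NC in every BEV group, and *ITGA4* in SUC fell short of 2-fold (-0.91). In bulk RNA, a change in the number of cells that express a gene and a change in RNA per cell cannot be told apart.

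Promoter sequences from RefSeq (build GRCh38.p14) were at hand for 4 of the 9 genes, *ICAM1*, *ICAM3*, *ITGA4* and *ITGAM*. Shown are bases -250 to -25 before the RefSeq start of *ICAM1*, whose RNA changed most among the 9 genes, and of *ITGAM*, an integrin chain whose RNA did not pass the test in any BEV group. Both are on the plus strand, *ICAM1* at chr19:10270870-10271095 and *ITGAM* at chr16:31259725-31259950. Capitals mark matches to the motifs searched on both strands.
ICAM1: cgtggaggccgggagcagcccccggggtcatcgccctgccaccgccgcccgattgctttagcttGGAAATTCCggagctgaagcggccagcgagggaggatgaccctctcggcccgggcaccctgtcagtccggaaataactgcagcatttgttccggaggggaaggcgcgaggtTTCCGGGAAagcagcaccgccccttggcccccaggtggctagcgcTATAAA
ITGAM: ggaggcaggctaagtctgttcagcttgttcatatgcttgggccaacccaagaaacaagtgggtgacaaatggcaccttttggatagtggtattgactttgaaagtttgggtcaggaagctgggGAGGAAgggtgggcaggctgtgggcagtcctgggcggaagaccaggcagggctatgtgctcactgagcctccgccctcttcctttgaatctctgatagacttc

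The first run of capitals in *ICAM1* is a match to GGAANNTCC, an NF-kappa B-type motif, at -186 to -178 from the start. The second is a match to TTCNNNGAA, a STAT-type motif, at -75 to -67, and the last is a TATAAA at -30 to -25. These motifs do not overlap one another in *ICAM1*. Of 35116 promoter windows of 250 bases in the RefSeq table, 3.8% hold GGAANNTCC, 6.6% hold TTCNNNGAA and 10.7% hold TATAAA. The capitals in *ITGAM* are GAGGAA, an ETS-type motif, at -127 to -122, which is found in 23.6% of the windows. Within the 250 bases before its start, *ITGA4* held none of the 4 motifs, and *ICAM3* held GAGGAA in 1 of its 3 windows only. The matches are matches of letters and were not tested as binding sites.

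Fold changes were tested with edgeR's quasi-likelihood test over all 17198 genes with enough reads, in 1 fit of the 15 libraries. A gene passed if its Benjamini-Hochberg adjusted p did not exceed 0.01, and was called a DEG if it also moved by 2-fold or more, the thresholds of the study. All 9 genes had enough reads to be tested. In each of the 4 BEV groups, 3 of the 9 genes were higher than in NC (*ICAM1*, *ITGB2*, *ITGAX*), 3 were lower (*ITGAL*, *ITGA4*, *SELPLG*) and 3 did not pass (*ICAM2*, *ICAM3*, *ITGAM*). Among all tested genes, the share that passed upwards in EUC, EPL, SUC and SPL was 16.5%, 16%, 12.4% and 13.3%, and the share that passed downwards was 14%, 13.2%, 9.15% and 10.6%. Only *ICAM1* was a DEG upwards (background 9.43%, 9.38%, 6.82% and 7.76% in EUC, EPL, SUC and SPL), and *ITGA4* and *SELPLG* were DEGs downwards (background 5.75%, 5.15%, 3.06% and 3.7%). The median log2 fold change of the 9 genes was -0.21 (EUC), -0.05 (EPL), -0.15 (SUC) and -0.07 (SPL), and that of all tested genes lay between -0.0065 and 0.0067. The 4 comparisons share the same NC libraries. Libraries of the BEV group and of NC did not overlap for 8, 7, 8 and 6 of the 9 genes (EUC, EPL, SUC and SPL), while 50.8%, 52.1%, 46.7% and 54.4% of all tested genes did not overlap in these comparisons.

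**Figure D1:**
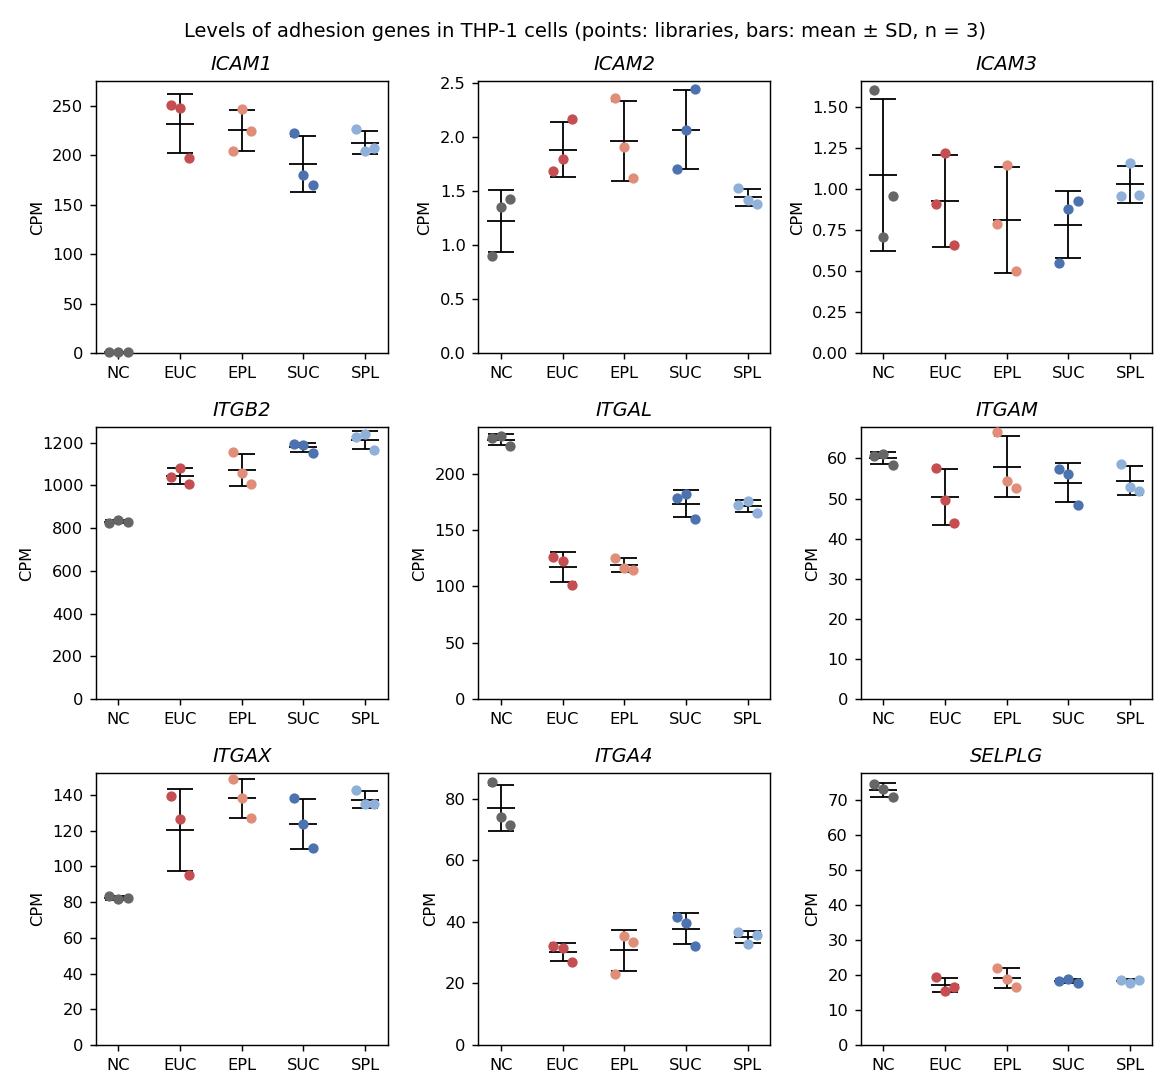
CPM of each of the 9 genes (y axis, linear, from 0) in the 5 groups (x axis), with 1 point per library and bars for the mean ± SD (n = 3). *ICAM1* is near 0 in NC and above 169 CPM in all 12 BEV libraries, while *SELPLG* goes from 70.8 to 74.7 CPM in NC to between 15.4 and 22.1 CPM with BEVs.

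Among the ligands, *ICAM1* (ENSG00000090339, chromosome 19, 10271093 to 10286615, plus strand, hg38) showed the largest difference of the 9 genes. Its product is a ligand of LFA-1 and Mac-1. The NC libraries held 1.73, 1.59 and 1.07 CPM, from 18 to 27 reads each. EUC libraries reached 250.5, 247.5 and 197 CPM, and EPL libraries 205, 246 and 225 CPM. SUC libraries reached 222.5, 180.4 and 169.7 CPM, and SPL libraries 226, 204 and 207.5 CPM. Every BEV library was thus far above every NC library, and the 4 BEV groups overlapped one another. The fold over NC was 158 in EUC (95% interval 121 to 206), 153 in EPL (118 to 199.6), 130.2 in SUC (100.2 to 169) and 145 in SPL (111 to 188). The log2 fold changes were 7.30, 7.26, 7.02 and 7.18, with a standard error of 0.179 each and adjusted p of 6.53e-15, 8.50e-15, 1.93e-14 and 1.35e-14 from edgeR's quasi-likelihood test. The lncRNA genes *LIMASI* and *ICAM4-AS1*, which overlap *ICAM1* on the opposite strand, had at most 1 and 2 reads in any library.

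The other ICAM genes had few counted reads. On the opposite strand, *PRR29* overlaps *ICAM2* and an unnamed lncRNA gene overlaps *ICAM3*, with at most 8 and 4 reads in any library. Whether reads in these overlaps were left out of the counts was not tested. *ICAM2* (ENSG00000108622, chromosome 17, 64002594 to 64020634, minus strand), whose product is a ligand of LFA-1 on resting endothelium, platelets and leukocytes, had between 14 and 37 reads per library. Its mean was 1.23 ± 0.289 CPM in NC, 1.88 ± 0.252 (EUC), 1.97 ± 0.372 (EPL), 2.07 ± 0.367 (SUC) and 1.44 ± 0.0803 (SPL) (mean ± SD, n = 3). NC and SPL overlapped, and NC lay below all libraries of the other 3 groups. The log2 fold changes of 0.61, 0.67, 0.75 and 0.23 did not pass (adjusted p of 0.0702, 0.0481, 0.0350 and 0.562 in EUC, EPL, SUC and SPL, edgeR). *ICAM3* (ENSG00000076662, chromosome 19, 10333776 to 10339661, minus strand), a leukocyte ligand of LFA-1, had between 8 and 25 reads per library. It stood at 1.09 ± 0.461 CPM in NC and between 0.782 ± 0.205 (SUC) and 1.03 ± 0.114 CPM (SPL) in BEV-stimulated cells, and all BEV groups overlapped NC. Its 95% intervals of the log2 fold change ran from -1.29 at the lowest to 0.74 at the highest, and a 2-fold decrease lay within those of EUC, EPL and SUC at this depth.

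*ITGB2* (ENSG00000160255, chromosome 21, 44885953 to 44931989, minus strand), the common beta chain, had the most reads of the 9 genes, 12863 to 19266 per library. The NC libraries held 823, 838 and 829 CPM. EUC libraries held 1039, 1082 and 1006 CPM, and EPL libraries 1154, 1059 and 1005 CPM. SUC libraries held 1192, 1189 and 1150.3 CPM, and SPL libraries 1228, 1241 and 1164 CPM. All BEV libraries were above all NC libraries. The fold over NC was small, 1.26 (EUC), 1.29 (EPL), 1.42 (SUC) and 1.46 (SPL). The 95% intervals of the log2 fold change were 0.18 to 0.48, 0.22 to 0.52, 0.36 to 0.65 and 0.40 to 0.69, with adjusted p of 0.00103, 0.000379, 2.29e-05 and 8.39e-06 (edgeR). *ITGB2-AS1*, an antisense gene within *ITGB2*, had 58 to 400 reads, and how strand was treated in counting is not stated in the sources read.

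Of the 3 alpha chains that pair with it, 1 fell, 1 rose and 1 did not pass, and all 3 are encoded on the short arm of chromosome 16. *ITGAL* (ENSG00000005844, 30472658 to 30523567, plus strand) fell in every BEV group. Its NC libraries held 232, 234 and 225 CPM. EUC libraries held 126, 123 and 102 CPM, and EPL libraries 126, 116 and 114 CPM. SUC libraries held 179, 182 and 159 CPM, and SPL libraries 172.5, 176 and 165.5 CPM. The levels thus formed 3 steps without overlap, NC above both *S. aureus* groups and these above both *E. coli* groups. The log2 fold changes were -0.98 in EUC (standard error 0.0872, adjusted p = 7.93e-08), -0.95 in EPL (0.0871, 1.10e-07), -0.41 in SUC (0.0862, 0.00138) and -0.43 in SPL (0.0863, 0.000890, all edgeR), just short of the 2-fold threshold for *E. coli* BEVs.

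*ITGAX* (ENSG00000140678, 31355134 to 31382999, plus strand), whose product CD11c also marks dendritic cells, rose in every BEV group. The NC libraries held 83.2, 81.5 and 82.1 CPM. EUC libraries held 139.5, 126 and 95.1 CPM, and EPL libraries 149, 138 and 127 CPM. SUC libraries held 138, 123.5 and 110.2 CPM, and SPL libraries 143, 135 and 135 CPM. EUC3 was the lowest BEV library and still above NC. The fold over NC was 1.46 in EUC (95% interval 1.23 to 1.74), 1.68 in EPL (1.41 to 1.99), 1.51 in SUC (1.27 to 1.79) and 1.67 in SPL (1.41 to 1.99), with adjusted p of 0.00113, 6.37e-05, 0.000843 and 8.66e-05 (edgeR).

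*ITGAM* (ENSG00000169896, 31259967 to 31332892, plus strand), which encodes CD11b, stood at 60.1 ± 1.43 CPM in NC. It was at 50.4 ± 6.93 CPM (EUC), 57.9 ± 7.65 (EPL), 54.0 ± 4.91 (SUC) and 54.5 ± 3.51 CPM (SPL, mean ± SD, n = 3). EUC and SUC did not overlap NC and the other 2 groups did. None of the differences passed (adjusted p of 0.0791, 0.746, 0.329 and 0.369 in EUC, EPL, SUC and SPL, edgeR), and the 95% intervals of the log2 fold change lay between -0.49 and 0.18.

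**Figure D2:**
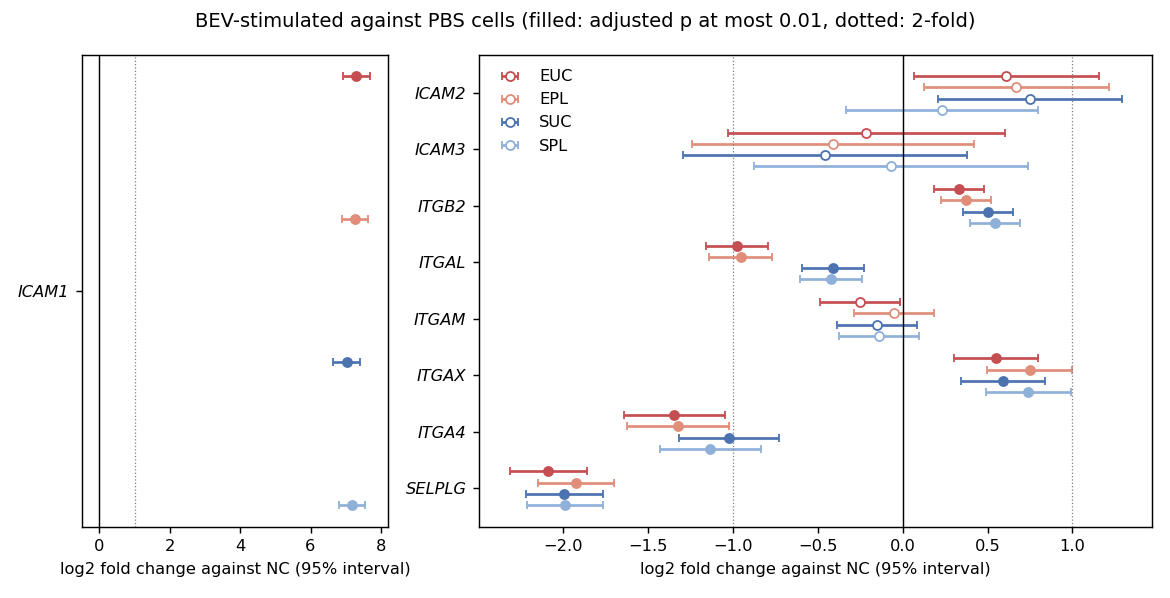
Fitted log2 fold change against NC (x axis) of the 9 genes (y axis) with 95% intervals, coloured by BEV group. Filled points passed the test and dotted lines mark 2-fold. *ICAM1* has its own panel at 7.02 to 7.30, and the *ITGAL* values of the *E. coli* and *S. aureus* groups lie apart.

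Levels of different genes were compared as CPM per kb of exon, with all exons of GENCODE release 44 merged. In NC, *ITGB2* stood highest at 114 ± 1.00 CPM per kb, followed by *SELPLG* at 25.9 ± 0.710, *ITGAL* at 23.3 ± 0.480, *ITGAX* at 11.6 ± 0.124, *ITGAM* at 10.6 ± 0.251 and *ITGA4* at 7.22 ± 0.693 (mean ± SD, n = 3). The 3 ICAM genes lay between 0.378 and 0.424 CPM per kb. With the length of the canonical transcript, *ITGAL* (44.9) came before *SELPLG* (28.3). In EUC, *ICAM1* reached 67.2 ± 8.70 CPM per kb, behind *ITGB2* at 143 ± 5.16.

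For each library, the sum of *ITGAL*, *ITGAM* and *ITGAX* per kb was set to 100% to show the mix of alpha chain RNA. This measure was added after the levels had been seen. *ITGAL* took 51.2% ± 0.266 of the sum in NC, 31.5% ± 1.38 (EUC), 28.9% ± 0.933 (EPL), 39.5% ± 1.32 (SUC) and 37.5% ± 1.09 (SPL). *ITGAX* took 25.6% ± 0.463 in NC, 44.9% ± 1.90 (EUC), 46.8% ± 0.888 (EPL), 39.2% ± 1.46 (SUC) and 41.9% ± 0.626 (SPL). The mean share of *ITGAL* in the 12 BEV libraries differed from that in the 3 NC libraries by -16.9 percentage points, and that of *ITGAX* by 17.7 points, both without overlap. No test is given, since the measure was built on the levels above. *ITGAM* kept between 20.2% and 25.8% of the sum in every library. Its difference from NC of -0.75 points turned to 0.161 with canonical transcript lengths. The RNA of *ITGB2* was 2.50 ± 0.0425 times the sum of the 3 alpha chains per kb in NC, and between 3.52 ± 0.0428 (EPL) and 3.84 ± 0.524 times (EUC) in BEV-stimulated cells. The ratio depends on the lengths used, and with canonical transcripts it was 3.93 ± 0.0674 in NC and between 5.80 ± 0.125 (SPL) and 6.35 ± 0.853 (EUC) with BEVs.

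**Figure D3:**
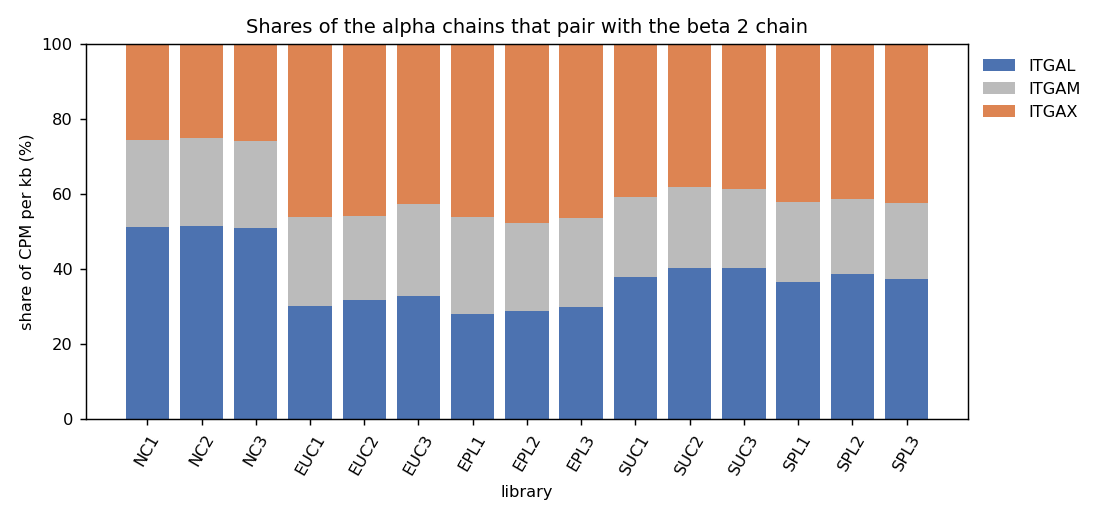
Share of *ITGAL*, *ITGAM* and *ITGAX* in the sum of their CPM per kb (y axis, %) in each of the 15 libraries (x axis). The *ITGAL* part is above 51.0% in the 3 NC libraries and at most 40.3% in the 12 BEV libraries, with the *E. coli* libraries lowest.

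*ITGA4* (ENSG00000115232, chromosome 2, 181457202 to 181538940, plus strand) encodes the alpha chain of VLA-4, a receptor for VCAM-1. The NC libraries held 85.3, 74.1 and 71.4 CPM. EUC libraries held 32.3, 31.6 and 26.8 CPM, and EPL libraries 23.2, 35.4 and 33.5 CPM. SUC libraries held 41.6, 39.7 and 32.0 CPM, and SPL libraries 36.7, 32.8 and 35.7 CPM. All BEV libraries were below all NC libraries, and the BEV groups overlapped one another except EUC and SPL. The log2 fold changes were -1.35 (EUC), -1.32 (EPL), -1.03 (SUC) and -1.13 (SPL), with standard errors from 0.139 to 0.141 and adjusted p of 5.78e-07, 7.42e-07, 1.88e-05 and 5.51e-06 (edgeR). The value in SUC lay close to the fold threshold, and without NC1 or SUC3 it no longer reached it (-0.92 at the smallest with 1 library left out).

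*SELPLG* (ENSG00000110876, chromosome 12, 108621895 to 108633894, minus strand), which encodes the selectin ligand PSGL-1, fell most of the 9 genes. The NC libraries held 74.7, 73.1 and 70.8 CPM. EUC libraries held 19.4, 15.4 and 16.6 CPM, and EPL libraries 22.1, 18.9 and 16.5 CPM. SUC libraries held 18.2, 18.9 and 17.8 CPM, and SPL libraries 18.7, 17.8 and 18.5 CPM. The highest BEV library, at 22.1 CPM, was far below the lowest NC library, and the BEV groups overlapped one another. The level was 4.26-fold lower in EUC, 3.80-fold in EPL, 3.98-fold in SUC and 3.98-fold in SPL, with log2 fold changes of -2.09, -1.93, -1.99 and -1.99, standard errors from 0.106 to 0.107 and adjusted p of 5.05e-11, 1.42e-10, 1.41e-10 and 1.21e-10 (edgeR).

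The isolation method was compared within each species. None of the 9 genes passed between EPL and EUC or between SPL and SUC, where the smallest adjusted p values were 0.947 and 0.854 and 0 of the 9 genes had an unadjusted p under 0.05 (edgeR). DESeq2 called none of the 9 either. Among all tested genes, 604 and 1000 had an unadjusted p under 0.05, and 0% and 0.00581% passed. *ICAM1* differed by -0.04 on the log2 scale between EPL and EUC (-0.29 to 0.21) and by 0.16 between SPL and SUC (-0.10 to 0.41). *ITGB2* differed by 0.04 in both species (-0.11 to 0.19 in each). *SELPLG* differed by 0.16 (-0.07 to 0.39) and 0.0024 (-0.23 to 0.23), and *ITGAX* by 0.20 (-0.05 to 0.45) and 0.15 (-0.10 to 0.40). The sparse *ICAM2* and *ICAM3* allowed method differences of over 2-fold in at least 1 species. Their SPL and SUC libraries did not overlap, against 12.8% of all tested genes in that comparison. EPL and EUC libraries overlapped for all 9 genes, and 6.37% of all tested genes did not overlap there. No gene of the 9 passed the test of whether the method difference depends on the species (smallest adjusted p of 1.00, 0 of 9 at an unadjusted p under 0.05 in edgeR, none in DESeq2).

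Between the species, 1 of the 9 genes passed. *ITGAL* was lower with *E. coli* BEVs (118 CPM on average) than with *S. aureus* BEVs (172 CPM), and the log2 difference was -0.55 with a standard error of 0.0614 (edgeR, adjusted p = 2.14e-05). Every one of the 6 *E. coli* libraries was below every one of the 6 *S. aureus* libraries, which was true in either direction for 4.29% of all tested genes. In either direction 3.87% of all tested genes passed. It also passed within each isolation method, at -0.57 for UC (adjusted p = 0.000652) and -0.53 for PL (adjusted p = 0.00663), where 0.494% and 0.093% of all tested genes passed in that direction. *ITGB2* was lower with *E. coli* BEVs by 0.17 on the log2 scale, with 1058 against 1194 CPM, and did not pass in edgeR (adjusted p = 0.0409) but passed in DESeq2 (adjusted p = 0.00147). Without EUC3, EPL1 and SUC3, 3 genes passed in edgeR, *ITGAL* at -0.56, *ITGB2* at -0.20 (adjusted p = 0.000732) and *ICAM1* at 0.22 (adjusted p = 0.00746). *ITGA4* stood at 30.5 CPM with *E. coli* and 36.4 CPM with *S. aureus* BEVs (adjusted p = 0.176), and *ICAM1* at 228 and 202 CPM (adjusted p = 0.284). *SELPLG* was at 18.1 and 18.3 CPM, with a 95% interval of the log2 difference from -0.18 to 0.15, and *ITGAX* at 129 and 131 CPM (-0.19 to 0.16). The share of *ITGAL* among the 3 alpha chains differed by -8.24 percentage points (*E. coli* minus *S. aureus*), that of *ITGAX* by 5.27 points and that of *ITGAM* by 2.98 points, a description without a test.

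**Figure D4:**
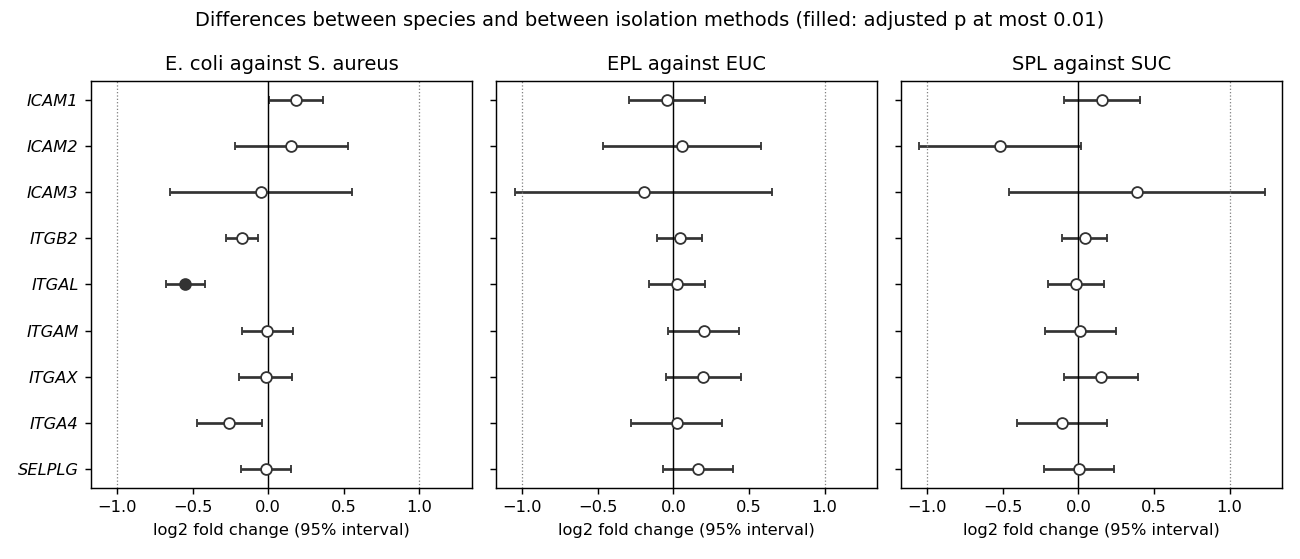
Log2 fold change with its 95% interval (x axis) of the 9 genes (y axis) between the species (left, mean of EUC and EPL against mean of SUC and SPL) and between the isolation methods (middle and right). *ITGAL* in the left panel, at -0.55, is the only filled point.

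For the DEGs, the genes with the most similar set of 4 fold changes against NC were looked up among 9262 other genes with a symbol and a mean of at least 10 CPM. Likeness was the root mean square difference of the 4 log2 fold changes, a description without a test. *ICAM1* was closest to the chemokine gene *CCL2* (0.0989) and to *IL4I1*, an amino acid oxidase gene (0.136). *SELPLG* was closest to *SESN3* (0.140) and *ADAMTS15* (0.148), and *ITGA4* to *NACC2* (0.0262) and *NAA80* (0.0314).

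Other genes of leukocyte adhesion were followed as 4 lists. For all of them, the background is the share of all tested genes that passed in EUC, EPL, SUC and SPL. It was 16.5%, 16%, 12.4% and 13.3% upwards and 14%, 13.2%, 9.15% and 10.6% downwards. The median log2 fold change of all tested genes lay between -0.0065 and 0.0067. Of 21 other integrin subunits, 17 were tested, and 5, 5, 5 and 4 passed upwards and 3, 3, 2 and 3 downwards in EUC, EPL, SUC and SPL. Their median log2 fold changes were 0.05, 0.19, -0.06 and 0.05. *ITGB8*, a beta chain that pairs with the alpha V chain, had no read in NC and 245, 231, 83 and 100 reads over the 3 libraries of EUC, EPL, SUC and SPL, at least 87.3-, 81.0-, 29.8- and 36.0-fold above the floor of 3 reads over the 3 NC libraries. Such limits cover counting error only. *ITGA1*, a collagen receptor chain, rose from 0.916 ± 0.284 CPM to 15.1 ± 2.66 (EUC), 11.8 ± 1.62 (EPL), 5.33 ± 1.86 (SUC) and 7.04 ± 1.02 (SPL). *ITGA2*, another collagen receptor chain, fell from 3.19 ± 0.386 CPM to between 0.806 ± 0.253 (SPL) and 0.979 ± 0.0741 CPM (EPL). *ITGB1*, which encodes a partner of the *ITGA4* chain, was at 159 CPM in NC and 196, 202, 198 and 188 CPM in EUC, EPL, SUC and SPL. The adjusted p were 0.00705, 0.00275, 0.00712 and 0.0335 (edgeR). *ITGAD*, the remaining alpha partner of *ITGB2*, had at most 4 reads in any library.

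Of 16 other ligands and selectins, 12 were tested, and 6, 6, 5 and 5 passed upwards and 0, 0, 1 and 1 downwards. Their median log2 fold changes were 0.51, 0.54, 0.39 and 0.39. *VCAM1*, the ligand of VLA-4, had no read in NC and 514, 517, 138 and 225 reads over the 3 libraries of EUC, EPL, SUC and SPL, at least 183-, 181-, 49.6- and 81.1-fold above the same floor. *CD44*, the hyaluronan receptor, rose from 59.8 ± 1.94 CPM to 880 ± 13.6 (EUC), 849 ± 78.8 (EPL), 541 ± 36.6 (SUC) and 603 ± 14.6 (SPL). *ICAM5*, a further LFA-1 ligand best known from neurons, rose from 0.407 ± 0.107 CPM to between 2.72 ± 0.699 (SUC) and 5.65 ± 0.691 CPM (EUC). The gene that passed downwards in both *S. aureus* groups was *PECAM1*, which encodes a junction protein of endothelium and leukocytes. It went from 305 CPM in NC to 223.5 (SUC) and 242 CPM (SPL). With *E. coli* BEVs its level was 245.8 (EUC) and 279.9 CPM (EPL), also below NC, and did not pass (adjusted p of 0.0102 and 0.299, edgeR). *PECAM1* did not pass between the species. *ICAM4* and *SELE* had no read in the 15 libraries, and *SELP* had 1.

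Of 15 adaptors and switches that turn integrins on or off from inside the cell, all were tested, and 5, 6, 4 and 4 passed upwards and 4, 4, 3 and 2 downwards. Their median log2 fold changes were 0.16, 0.13, 0.07 and 0.03. *CYTIP*, whose product binds the LFA-1 regulator cytohesin-1, rose from 1.37 ± 0.472 CPM to 34.2 ± 2.92 (EUC), 32.4 ± 4.50 (EPL), 15.8 ± 3.74 (SUC) and 22.7 ± 2.06 (SPL). *FERMT3*, which encodes kindlin-3 and binds beta chain tails, rose from 270.4 ± 9.50 CPM to between 811.5 ± 58.6 (SUC) and 955 ± 41.3 CPM (EUC). *RASGRP2*, an exchange factor that activates Rap1, fell from 267.5 ± 1.96 CPM to 60.5 ± 6.41 (EUC), 55.8 ± 4.86 (EPL), 86.4 ± 8.96 (SUC) and 76.1 ± 2.77 (SPL). *TLN1*, which encodes talin, was at 642 CPM in NC and between 510.0 and 604 CPM in the BEV groups and did not pass in any of them (adjusted p from 0.0964 to 0.710).

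Of 8 enzymes that build selectin ligands, all were tested, and 3, 3, 4 and 3 passed upwards and 2, 3, 0 and 3 downwards. Their median log2 fold changes were 0.34, 0.16, 0.23 and 0.18. The 3 that rose at least 2-fold in every BEV group were *TPST1*, *GCNT1* and *B4GALT1*. *TPST1*, which sulphates tyrosines, rose from 1.45 ± 0.271 CPM to between 4.03 ± 0.780 (SPL) and 4.96 ± 0.256 CPM (EUC). *GCNT1*, which starts the core 2 sugar branch, rose from 31.0 ± 0.219 CPM to 87.5 ± 8.43 (EUC), 92.6 ± 6.34 (EPL), 63.9 ± 3.48 (SUC) and 67.0 ± 1.82 (SPL). *B4GALT1*, a galactosyltransferase, rose from 57.5 ± 0.474 CPM to between 121 ± 4.70 (SUC) and 155 ± 2.28 CPM (EPL). The fucosyltransferase gene *FUT7* went from 22.3 CPM in NC to 16.8, 13.3, 17.0 and 12.9 CPM in EUC, EPL, SUC and SPL. It passed in EPL and SPL (adjusted p of 0.00884 and 0.00748, edgeR). *FUT4* and *ST3GAL6* passed downwards in EUC, EPL and SPL. *FUT4* went from 298 CPM in NC to 210, 206, 266 and 237 CPM in EUC, EPL, SUC and SPL. *ST3GAL6* went from 24.6 CPM to 16.4, 19.3, 22.4 and 18.65 CPM in the same order. *ITGA7*, *ITGAV*, *ITGB1*, *ITGAD*, *PECAM1*, *ICAM4*, *SELE*, *SELP*, *TLN1*, *FUT4*, *FUT7* and *ST3GAL6* were picked for naming after their values had been seen. *ITGA7*, a laminin receptor chain, fell in all 4 groups, from 59.2 CPM to between 27.3 (EUC) and 32.7 CPM (SUC).

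**Figure D5:**
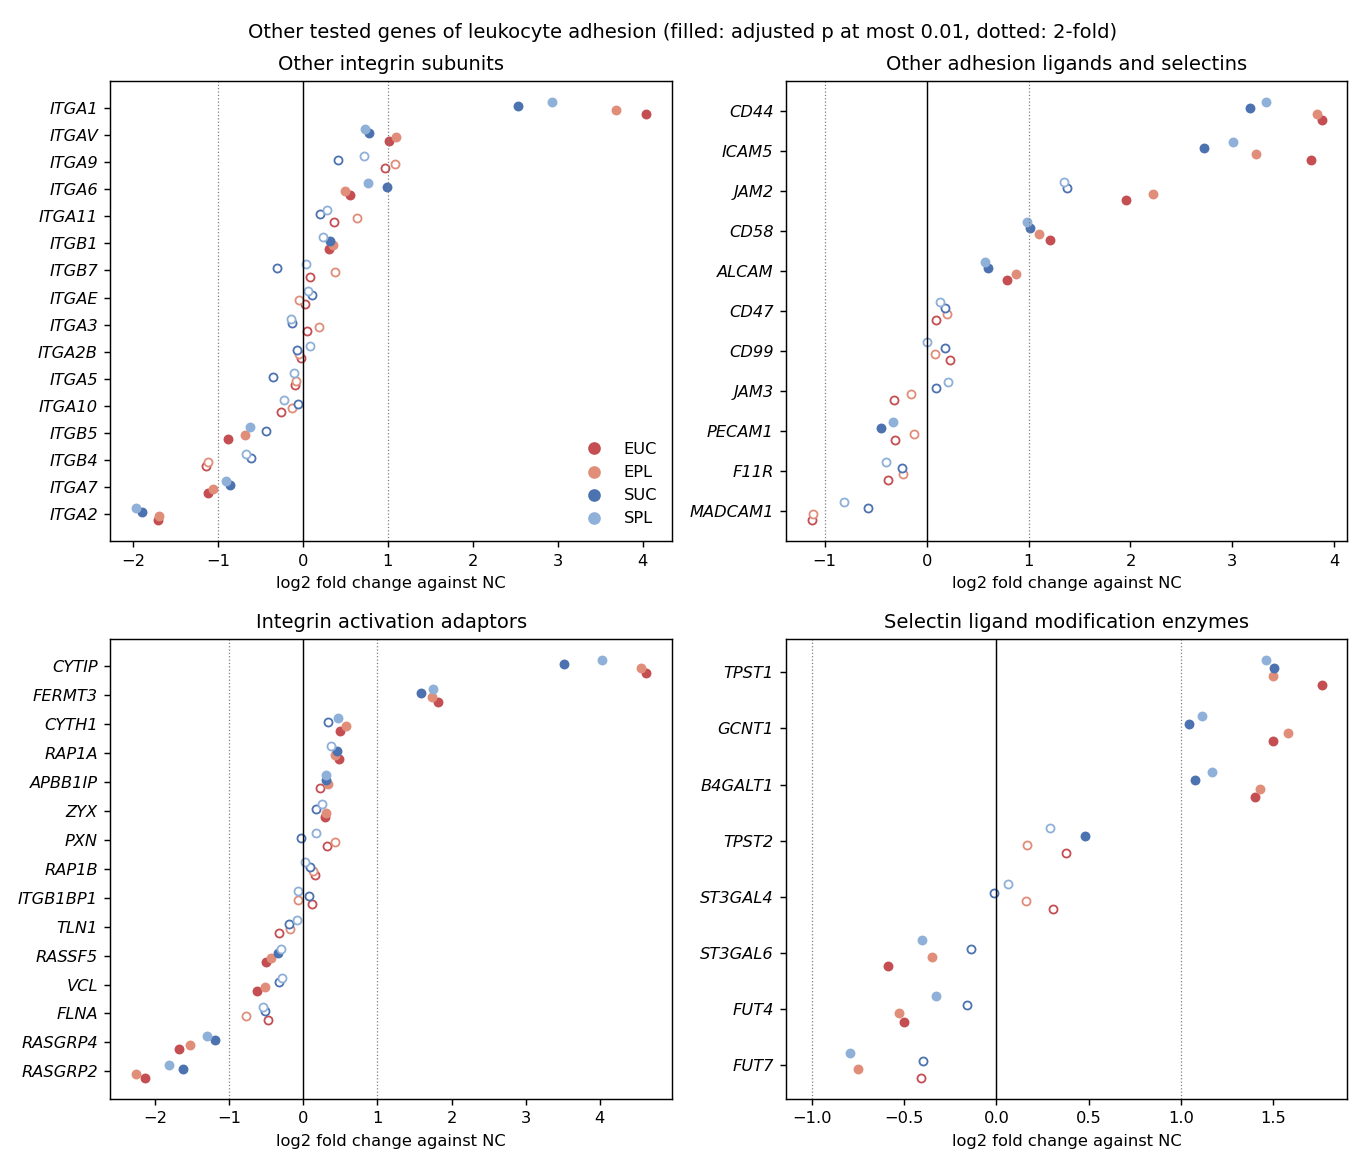
Fitted log2 fold changes against NC (x axis) of the tested genes of the 4 lists (y axis), coloured by BEV group. Filled points passed the test, dotted lines mark 2-fold, and *ITGB8* and *VCAM1*, which had no read in NC, are left out. *CD44* and *CYTIP* lie above 3 in every group and *RASGRP2* below -1.6.

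Between the species, 3 of the 17 integrin subunits passed, all higher with *E. coli* BEVs (*ITGB8* at 1.35, *ITGA1* at 1.13 and *ITGAV* at 0.30 on the log2 scale). Of the ligands, 3 of 12 were higher with *E. coli* BEVs, *VCAM1* at 1.52 (adjusted p = 3.29e-06), *CD44* at 0.60 (4.83e-06) and *ICAM5* at 0.64 (0.00689, all edgeR). Of the adaptors, *CYTIP* was higher by 0.82 and *RASGRP2* differed by -0.48, and of the enzymes *GCNT1* was higher by 0.46 and *B4GALT1* by 0.29. Among all tested genes 2.87% were higher and 1% lower with *E. coli* BEVs.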

How the data were processed

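RNA of 15 THP-1 libraries was sequenced after library preparation with an NEB kit. Per the labels, the authors checked the reads with FastQC 0.11.5 and aligned them to hg38 with HISAT2 2.1.0. featureCounts is named in the submitters' processing notes without a role, and neither the annotation release nor the strand setting is stated in the sources read. The authors deposited whole-number read counts per Ensembl gene without normalization. Libraries were grouped by title.

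The deposited counts were analysed with edgeR 4.0.16 in R 4.3.3. filterByExpr left 17198 of 60286 genes, TMM scaled the libraries, and a quasi-likelihood model was fitted to all libraries without a replicate block. The study used DESeq2 (1.42.0 here), which was run as an alternative. P-values were adjusted over all tested genes by the Benjamini-Hochberg method. The common biological coefficient of variation was 0.118. The scripts were tested on simulated data. Gene positions and lengths are from GENCODE release 44.

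The 9 genes and all lists were chosen with earlier results of these data known. Named by rule are all 9 genes and the 2 genes most like each DEG among them. From each adhesion list, up to 3 genes were named by rule. These had the largest mean change among those that passed in all 4 groups at a mean CPM of at least 1. Some further genes, such as *ITGA7* and *PECAM1*, were picked after their values had been seen. Genes of the adhesion lists that passed between the species are named as well.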

Additional observations from a re-analysis of the deposited data

Results flagged for a closer look

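The effect of BEVs on *ITGAL* differed between the species. The difference was -0.549 on the log2 scale (*E. coli* minus *S. aureus*, edgeR adjusted p = 2.14e-05), lower in 6 of 6 *E. coli* libraries. Species and dose cannot be told apart in this value. With 3 libraries a group, no test for a single outlying value of a gene was made.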

How the results depend on the processing

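Of 45 log2 fold changes of single genes, 37 kept their direction and their side of the test's threshold under all 21 of these other settings (RLE normalization, no filter, a mean of at least 10 counts, DESeq2, a replicate block, only the groups compared, and each library left out). Of all 45, 2 crossed 2-fold under one of these, *ITGA4* in SUC and *ITGAL* in EUC. DESeq2 also called *ITGB2* between the species (-0.17), so that 2 of the 9 genes were lower with *E. coli* BEVs in place of 1. With each library left out in turn, the downward DEGs in SUC numbered 1 to 2, the lower number without NC1 or SUC3, where *ITGA4* was lost. *ITGAL* in EUC lay between -1.04 and -0.89 with 1 library left out. All values that changed direction had not passed. Leaving out 1 library turned *ICAM3* to 0.16 in EUC (range -0.455 to 0.162) and 0.31 in SPL (range -0.295 to 0.306), both without NC1, and *ITGAM* to 0.0069 in EPL (range -0.17 to 0.0069). Between the species, 1 library left out gave ranges of -0.225 to 0.0682 for *ICAM3*, -0.0685 to 0.0272 for *ITGAM*, -0.0861 to 0.0424 for *ITGAX* and -0.0739 to 0.0217 for *SELPLG*. UC libraries alone gave -0.14 for *ICAM2* and 0.24 for *ICAM3*, and PL libraries alone 0.0881 for *ITGAM*, 0.0066 for *ITGAX* and 0.0647 for *SELPLG*. Without EUC3, EPL1 and SUC3, 1 gene was a DEG downwards in SUC, and between the species 1 passed upwards (*ICAM1*) and 2 downwards (*ITGAL*, *ITGB2*), with *ICAM3* at 0.118, which did not pass. These libraries were picked for their distance from the others, which lowers the spread the test uses. This fit, the split by method, the lengths and the shares were added after seeing the data. The difference of the *ITGAM* share from NC turned to 0.161 with canonical lengths and to 0.441 without length. The cause of these changes was not tested.

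Whether the replicate numbers pair the libraries was looked at without a test. Deviations from the group mean correlated at a mean of 0.0095 over 30 pairs with the same number, and 7 of these pairs were over 0.1. Over 60 pairs with different numbers the mean was -0.0036, and 12 of these pairs were over 0.1. In 9 of 15 libraries the correlation was highest with the own number. These values do not decide whether the libraries were paired. With the replicate block, the calls of the 9 genes did not change, and the DEGs over all genes in EUC went from 1621 to 1581 upwards and from 989 to 972 downwards. Over all genes, the background moved by more than 1.5 times with only the groups compared in SPL (3214 passed downwards against 1830) and between the species (102 against 172 downwards), where no filter gave 269, DESeq2 gave 286, leaving out SUC2 or SPL2 gave 102 and 108, and leaving out EUC3, EPL1 and SUC3 gave 575 (2951 in SPL). DEGs downwards between the species went from 4 to 7 without EUC1, EUC2 or SPL1 and to 9 without a filter. Between SPL and SUC, where 1 gene passed, 11 passed upwards and 7 downwards without a filter.

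Low counts limit *ICAM2* and *ICAM3*, with 8 to 37 reads per library.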
